A study of Mus musculus with 3 samples.

Results

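A set of 10 genes that bring plasma triglyceride into cells as fatty acids was followed through every cluster of nuclei in 3 stages of diet-induced obesity in mouse epididymal fat. They are Lpl, Gpihbp1, Angptl4, Lmf1, Cd36, Fabp4, Fabp5, Slc27a1, Slc27a4 and Acsl1. They were chosen by name for their place in this pathway, with earlier results of these data known. All 10 were listed in each of the 3 libraries, out of 29625 gene identifiers in all. Each library holds nuclei from the pooled epididymal fat of 8 male C57BL/6J mice. The Ctrl library is labelled full diet, while the Mid_Ob and Ob libraries are labelled high fat diet, a chow with 60% fat by the study's methods. By the same methods, Mid_Ob mice weighed over 10% and Ob mice over 20% more than controls. Mice were bought at 5 weeks of age, and the labels name no transgene.

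Lipoprotein lipase, made by fat cells and macrophages among others, cuts triglyceride in circulating lipoproteins into fatty acids. It is folded in the endoplasmic reticulum with the help of LMF1, carried to the capillary wall by the endothelial protein GPIHBP1, and inactivated by ANGPTL4. Fatty acids then enter cells with the help of CD36 and of the transport proteins FATP1 (Slc27a1) and FATP4 (Slc27a4), are bound inside the cell by FABP4 and FABP5, and are activated with coenzyme A by ACSL1 for storage or oxidation.

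Levels are given in CPM, the transcript molecules (UMIs) of a gene relative to all UMIs of the same nuclei, scaled to a common total of 1000000, and they describe nuclear RNA, not protein. Values in parentheses are 95% intervals and cover counting error only. With 1 library per stage there was no test between stages. A gene was called higher or lower when its ratio passed 1.5-fold with at least 50 counts in the pair. At the level of a whole library, fewer nuclei of a type and less RNA per nucleus cannot be told apart.

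The libraries differed in depth and in the tissue they held. Their totals were 53980929 (Ctrl), 57665213 (Mid_Ob) and 111595518 (Ob) UMIs. Clusters named from markers as adipocyte-like held 25.2%, 46.9% and 55.4% of these UMIs, and macrophage-like clusters held 8.85%, 6.15% and 19.6%. Clusters with germ cell and testis somatic markers held 26.3% and 15.4% of Ctrl, and epididymal epithelium-like clusters held 30.3% of Mid_Ob and 5.32% of Ctrl, although the labels name adipose tissue alone. Clusters 13 and 18 of Ob had 6.18% and 8.39% mitochondrial UMIs, over the 5% limit of the study's stated filter, and were given no name. None of the 10 genes was used to name a cluster. The share of nuclei that were doublets and the barcodes common to libraries were not analysed here.

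Lpl, Gpihbp1, Angptl4, Fabp4 and Fabp5 lie on mouse chromosomes 8, 15, 17, 3 and 3 of GRCm38. Promoter windows from RefSeq on GRCm38.p6 were at hand for Lmf1, Cd36, Slc27a1, Slc27a4 and Acsl1. The 250 bases before the start of Cd36, Slc27a4 and Acsl1 are shown as examples, in the direction of the gene. From Mid_Ob to Ob, Cd36 was called higher in each class compared and Acsl1 in adipocyte-like and endothelial-like clusters. Slc27a4 was called lower in adipocyte-like and in fibroblast or progenitor-like clusters. Slc27a1 was also called higher in several classes, and its windows are not shown. Capitals mark AGGTCA, the half-site of nuclear receptors such as PPARG, CCAAT, the TATA box sequence TATAAA, the E-box CACGTG and the GC-box GGGCGG, each searched on both strands, together with the direct repeat AGGTCANAGGTCA, which holds the half-site. The Cd36 window is chr5:17835897-17836146 on the minus strand, within the annotated span of the gene. The bases after this Cd36 start were not found in an annotated transcript of the gene, while those of the Slc27a4 and Acsl1 windows were. The Slc27a4 window is chr2:29802384-29802633 on the plus strand, directly before the gene. The Acsl1 windows are chr8:46470787-46471036, directly before the gene, and chr8:46490716-46490965, within its span, both on the plus strand.
Cd36: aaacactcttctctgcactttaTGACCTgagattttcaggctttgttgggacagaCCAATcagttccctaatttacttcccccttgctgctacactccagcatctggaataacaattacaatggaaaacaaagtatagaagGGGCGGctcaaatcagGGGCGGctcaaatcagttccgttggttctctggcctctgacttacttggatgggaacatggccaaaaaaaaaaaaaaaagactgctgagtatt
Slc27a4: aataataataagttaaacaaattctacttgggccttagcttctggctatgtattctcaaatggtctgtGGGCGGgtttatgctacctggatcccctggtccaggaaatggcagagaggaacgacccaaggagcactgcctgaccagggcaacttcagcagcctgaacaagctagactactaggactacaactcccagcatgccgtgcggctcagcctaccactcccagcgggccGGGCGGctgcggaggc
Acsl1, first start: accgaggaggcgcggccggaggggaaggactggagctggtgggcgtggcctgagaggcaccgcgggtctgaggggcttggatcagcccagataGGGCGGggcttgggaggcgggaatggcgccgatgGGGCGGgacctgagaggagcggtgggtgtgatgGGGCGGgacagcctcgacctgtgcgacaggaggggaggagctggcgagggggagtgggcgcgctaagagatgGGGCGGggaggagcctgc
Acsl1, second start: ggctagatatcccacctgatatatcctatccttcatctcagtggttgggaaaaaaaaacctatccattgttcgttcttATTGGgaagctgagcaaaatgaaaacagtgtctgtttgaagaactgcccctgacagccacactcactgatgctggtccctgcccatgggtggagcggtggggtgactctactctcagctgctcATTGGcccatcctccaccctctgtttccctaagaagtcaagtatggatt

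The Cd36 window held 1 half-site, 1 CCAAT and 2 GC-boxes, with 43.2% G and C and 3 CpG. The first Acsl1 window held 4 GC-boxes and 20 CpG at 72% G and C, while the second held 2 CCAAT and 2 CpG at 48.4%. The Slc27a4 window held 2 GC-boxes and 8 CpG at 54.4% G and C. The half-site occurs in 14% of 32851 promoter windows of this length, CCAAT in 33.8% and the GC-box in 32.7%. None of the 4 windows held the direct repeat, which occurs in 0.0335% of all windows, TATAAA (12.4%) or the E-box (6.02%). The Slc27a1 window chr8:71570344-71570593, not shown, held 1 E-box.

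Across whole libraries 7 of the 10 genes stood highest in Ob, while Gpihbp1 and Slc27a4 stood highest in Mid_Ob and Lmf1 in Ctrl. From Ctrl to Mid_Ob, 4 of the 10 genes were called higher, against 17.3% of all genes measured, and 1 was called lower, against 35.5%. Without the testis and epididymis clusters 2 of them, Gpihbp1 and Acsl1, were called higher in this comparison and 0 lower. From Mid_Ob to Ob, 7 were called higher, against 17.5% of all genes, and 1 lower, against 27.3%. From Ctrl to Ob, 8 were called higher, against 18.1%, and 1 lower, against 43.5%. The 8 were Lpl, Gpihbp1, Angptl4, Cd36, Fabp4, Fabp5, Slc27a1 and Acsl1. The median log2 ratio of the 10 genes was 0.50, 1.07 and 1.41 in the 3 comparisons, where that of all genes was -0.16, -0.09 and -0.35. Ratios below are given without correction for this shift.

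**Figure D1:**
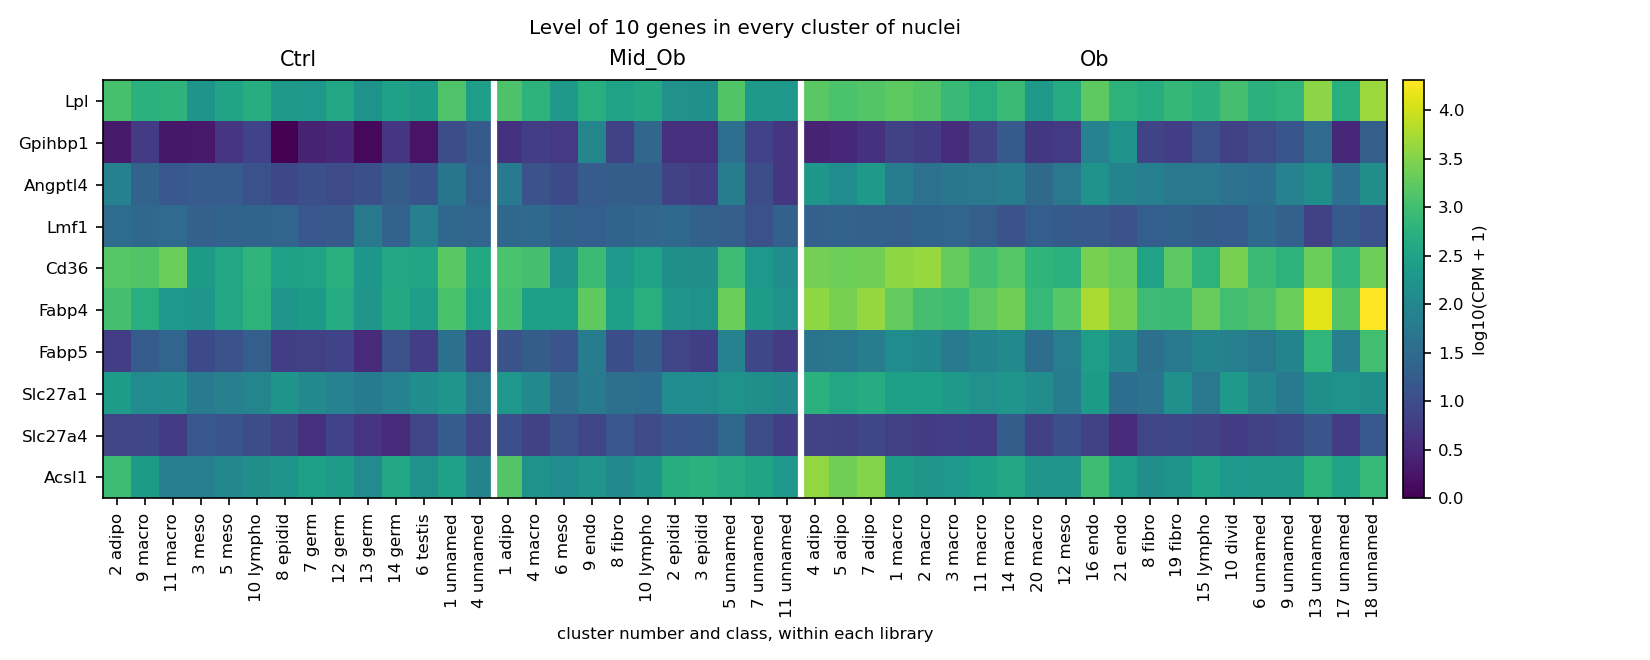
Level of each of the 10 genes (rows) in each of the 46 clusters (columns, with number and class, grouped by library), as log10(CPM + 1) by colour. Lpl and Cd36 are high in adipocyte-like and in some macrophage-like clusters, Acsl1 is highest in the adipocyte-like cluster or clusters of every library, and Gpihbp1 stands out in the endothelial-like clusters.

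Lpl, the lipase itself (GRCm38 chr8:68880491-68907448, plus strand), was at 508 CPM in the Ctrl library, 740.1 in Mid_Ob and 1249 in Ob. The library level was thus 1.69-fold (1.67 to 1.71) higher in Ob than in Mid_Ob. In adipocyte-like clusters Lpl was at 1139, 1277 and 1364 CPM. There the Ob level exceeded that of Mid_Ob by 1.07-fold (1.05 to 1.08) and that of Ctrl by 1.20-fold, so that Lpl was not called in adipocyte-like clusters in any comparison of stages. In macrophage-like clusters it was at 591, 622 and 1142 CPM, 1.84-fold (1.76 to 1.92) higher in Ob than in Mid_Ob. Lpl was also called higher in Ob than in Mid_Ob in mesothelial-like clusters (204 and 452 CPM), in fibroblast or progenitor-like clusters (308 and 604 CPM) and in endothelial-like clusters (534 and 1095 CPM). The endothelial-like call was lost without cluster 16 of Ob, which also carried adipocyte and fibroblast markers (log2 ratio 0.18). The fibroblast or progenitor-like log2 ratio went from 0.97 to 0.67 without cluster 19 of Ob, which also carried macrophage markers. The adipocyte-like clusters held 56.6% of the Lpl UMIs of Ctrl, 80.9% of those of Mid_Ob and 60.5% of those of Ob, and the macrophage-like clusters held 10.3%, 5.17% and 17.9%.

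Among the clusters of Ob, macrophage-like cluster 1 had 1754 CPM of Lpl (1713 to 1795), above adipocyte-like clusters 4 (1644, 1625 to 1662), 7 (1410, 1383 to 1437) and 5 (1217, 1206 to 1229). Macrophage-like cluster 2 had 1461 CPM (1433 to 1489), between adipocyte-like clusters 4 and 7. The other macrophage-like clusters of Ob lay lower, with 856 CPM for cluster 14, 846 for cluster 3, 511 for cluster 11 and 217 for cluster 20, the lowest Lpl level of the library. The macrophage-like clusters of Ob therefore spanned the range of all named clusters. The highest values of Ob, 4673 and 3575 CPM, were in the mitochondria-rich unnamed clusters 18 and 13. Of the 20 pairs of neighbours in the order of the Ob clusters, 12 had overlapping intervals. In Ctrl the adipocyte-like cluster had 1139 CPM and macrophage-like clusters 11 and 9 had 628 and 557. In Mid_Ob the single macrophage-like cluster had 622 CPM against 1277 in the adipocyte-like cluster.

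Lmf1, the folding factor of the lipase in the endoplasmic reticulum, was the member with the lowest library level in Ob relative to Ctrl. It was at 37.6, 24.6 and 20.6 CPM in Ctrl, Mid_Ob and Ob, 1.83-fold (1.72 to 1.94) lower in Ob than in Ctrl. In Ctrl its highest level, 74.1 CPM (68.4 to 80.2), was in the testis somatic-like cluster, which held 30.4% of the Lmf1 UMIs of that library. Without the testis and epididymis clusters the log2 ratio of Ob over Ctrl was -0.45, short of a call. In adipocyte-like clusters Lmf1 was at 32.1, 26.3 and 21 CPM, 1.52-fold (1.36 to 1.70) lower in Ob than in Ctrl. This call was lost without cluster 4 of Ob (log2 -0.58) and with the median of all gene ratios as the scale (log2 -0.49). In macrophage-like clusters it was at 28.7, 28.2 and 22.2 CPM and was not called.

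Gpihbp1, which holds the lipase on the capillary wall, followed the endothelial-like clusters. The library levels were low, at 2.19 CPM in Ctrl, 6.66 in Mid_Ob and 5.03 in Ob. Endothelial-like cluster 9 of Mid_Ob had 88.8 CPM (75.8 to 104, 164 counts), which was 42.7% (37.7 to 47.8) of all Gpihbp1 UMIs of that library in 3.20% of its UMIs. In Ob, endothelial-like cluster 21 had 157 CPM (121 to 199, 66 counts) and cluster 16 had 80.7 CPM (53.2 to 117, 27 counts). Both clusters together held 16.6% (13.6 to 19.9) of the Gpihbp1 UMIs of Ob in 0.678% of its UMIs. The adipocyte-like clusters, where the lipase is made, had 1.03, 3.22 and 2.15 CPM of Gpihbp1, from 14, 87 and 133 counts. No cluster of Ctrl was named endothelial-like. Its highest Gpihbp1 level, 15.8 CPM from 44 counts, was in unnamed cluster 4, which had all 13 endothelial and all 14 fibroblast markers over 2-fold. Cluster 8 of Ctrl had 0 counts, which allows up to 1.28 CPM.

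**Figure D2:**
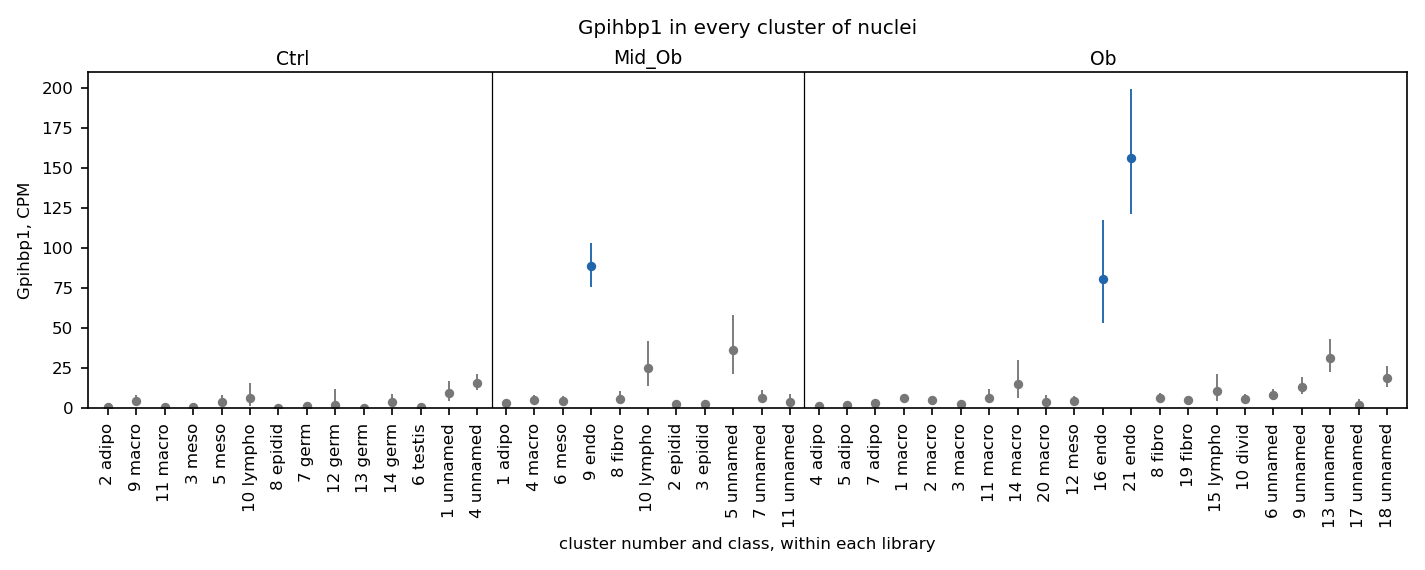
Gpihbp1 level in CPM in each cluster of the 3 libraries, with 95% counting intervals as bars and the endothelial-like clusters coloured. Clusters 21 and 16 of Ob (157 and 80.7 CPM) and cluster 9 of Mid_Ob (88.8 CPM) lie above every other cluster of their libraries.

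The endothelial-like clusters were not of one kind. Cluster 21 of Ob had 545 CPM of Prox1, a lymphatic transcription factor, where cluster 9 of Mid_Ob had 125. Cluster 9 of Mid_Ob had all 13 endothelial markers over 2-fold and also all 10 markers of pericytes and smooth muscle. Cluster 16 of Ob had 12 of 13 endothelial markers over 2-fold, but also 14 of 15 adipocyte and 9 of 14 fibroblast markers. For the members compared in this class, endothelial-like values of Ob are therefore also given below without cluster 16.

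Angptl4, the secreted inhibitor of the lipase that is induced by fasting and fatty acids, was at 30.0, 31.9 and 110 CPM in the Ctrl, Mid_Ob and Ob libraries. Ob stood apart from both other stages, 3.45-fold (3.28 to 3.62) above Mid_Ob. In adipocyte-like clusters Angptl4 was at 77.2, 58.1 and 153 CPM, 2.63-fold (2.5 to 2.78) higher in Ob than in Mid_Ob. In macrophage-like clusters it was at 18.4, 11.8 and 47.9 CPM, and in mesothelial-like clusters at 16, 8.13 and 52.8 CPM. Mid_Ob was thus the lowest of the stages in all 3 classes. Angptl4 was most abundant in adipocyte-like clusters 7 (205 CPM, 195 to 215) and 4 (192 CPM, 185 to 198) of Ob, whose intervals overlap, and the third adipocyte-like cluster, 5, had 123 CPM.

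Cd36, the scavenger receptor that takes up long-chain fatty acids and oxidised lipoproteins, was at 764 CPM in Ctrl, 739 in Mid_Ob and 2207 in Ob. Ctrl and Mid_Ob were close, and Ob was 2.99-fold (2.96 to 3.02) above Mid_Ob. In adipocyte-like clusters Cd36 was at 1524, 1222 and 2354 CPM, 1.93-fold (1.90 to 1.95) higher in Ob than in Mid_Ob. In macrophage-like clusters it was at 1727, 1084 and 2923 CPM, 2.70-fold (2.61 to 2.79) higher in Ob than in Mid_Ob. Summed over its clusters, the macrophage-like class had more Cd36 per UMI than the adipocyte-like class in Ctrl and Ob, and less in Mid_Ob. Single clusters differed. In Ob, clusters 1 and 2 lay above the summed adipocyte-like level and clusters 3, 14, 11 and 20 below it. In Ctrl, cluster 11 lay above it and cluster 9 below. Macrophage-like clusters 2 (4415 CPM, 4366 to 4464) and 1 (3809 CPM, 3749 to 3870) were the highest of all clusters of Ob, and macrophage-like cluster 11 (2108 CPM) was the highest of Ctrl. Within the macrophage-like clusters of Ob the level went down to 671 CPM in cluster 20.

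Slc27a1, the insulin-responsive transporter FATP1, was at 133, 149 and 325 CPM in the 3 libraries and was 2.18-fold higher in Ob than in Mid_Ob. In adipocyte-like clusters it was at 238, 196 and 450.3 CPM, 2.30-fold (2.23 to 2.37) higher in Ob than in Mid_Ob. In macrophage-like clusters it was at 123, 112 and 234 CPM, 2.08-fold higher in Ob. All 3 adipocyte-like clusters of Ob, at 574, 465 and 387 CPM, lay above macrophage-like clusters 2 and 1, at 285 and 278 CPM. Slc27a4, the transporter FATP4, went the other way. It was at 6.85, 10.9 and 6.46 CPM in the libraries and at 7.05, 10.4 and 6.45 CPM in adipocyte-like clusters, where Ob was 1.62-fold (1.38 to 1.89) lower than Mid_Ob. In macrophage-like clusters, at 6.07, 6.20 and 5.4 CPM, Slc27a4 was not called.

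Fabp4, the fatty acid-binding protein of adipocytes that macrophages and capillary endothelium also express, was at 490 CPM in Ctrl, 673 in Mid_Ob and 2783 in Ob. Ob was 4.13-fold (4.09 to 4.18) above Mid_Ob, and the higher level was seen in each class compared. Fabp4 was at 1096, 1059 and 3195 CPM in adipocyte-like clusters, at 365, 281 and 1234 in macrophage-like clusters and at 240, 283 and 1567 in mesothelial-like clusters. The unnamed clusters 18 and 13 of Ob had 20464 and 13394 CPM, and unnamed clusters held 20.7% of the Fabp4 UMIs of Ob. Among named clusters of Ob, endothelial-like cluster 16 was highest with 5829 CPM, followed by adipocyte-like clusters 7 with 4281 and 4 with 3826. Cluster 16 also had 14 of 15 adipocyte markers over 2-fold. Its Fabp4 stood at 182% of the adipocyte-like level and its Adipoq at 157%, and the part of adipocyte transcripts in its Fabp4 was not tested. In Mid_Ob endothelial-like cluster 9, at 1745 CPM, also lay above the adipocyte-like cluster.

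Fabp5, the epidermal fatty acid-binding protein, had the largest ratio of the 10 genes between the Ctrl and Ob libraries. It was at 7.58, 12.2 and 83.2 CPM in the libraries, 6.82-fold (6.32 to 7.38) higher in Ob than in Mid_Ob. In adipocyte-like clusters it was at 4.99, 11.4 and 49.7 CPM, 9.96-fold (7.83 to 12.9) higher in Ob than in Ctrl. In macrophage-like clusters, at 20.5, 17.5 and 87.3 CPM, the Ob level was 5.0-fold (3.88 to 6.55) above Mid_Ob. Fabp5 stood higher in macrophage-like than in adipocyte-like clusters at each stage, unlike Fabp4. Its highest levels were again in mitochondria-rich unnamed clusters, where cluster 1 of Ctrl had 38.6 CPM, cluster 5 of Mid_Ob had 81.1 and cluster 18 of Ob had 1008. Unnamed clusters held 34.1% of the Fabp5 UMIs of Ob.

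Acsl1, the main acyl-CoA synthetase of adipocytes, was higher at each successive stage and had the largest share of its UMIs in adipocyte-like clusters among the 10 genes in Ctrl and Ob. It was at 348, 877 and 1759 CPM in the libraries, 5.06-fold higher in Ob than in Ctrl. In adipocyte-like clusters it was at 908, 1436 and 2984 CPM, 1.58-fold (1.55 to 1.61) higher in Mid_Ob than in Ctrl and 2.08-fold (2.06 to 2.10) higher in Ob than in Mid_Ob. Clusters 4, 7 and 5 of Ob had 4104, 3305 and 2368 CPM, and the next named cluster, endothelial-like cluster 16, had 921. The adipocyte-like clusters held 65.9%, 76.7% and 94.0% of all Acsl1 UMIs. In macrophage-like clusters, at 153, 162 and 211 CPM, Acsl1 was not called. The epididymal epithelium-like clusters of Mid_Ob had 534 CPM and 18.4% of its Acsl1 UMIs, where that cluster of Ctrl had 166 CPM. An antisense gene, Gm45244, overlaps Acsl1, and the use of strand in counting is not given in the sources used here.

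**Figure D3:**
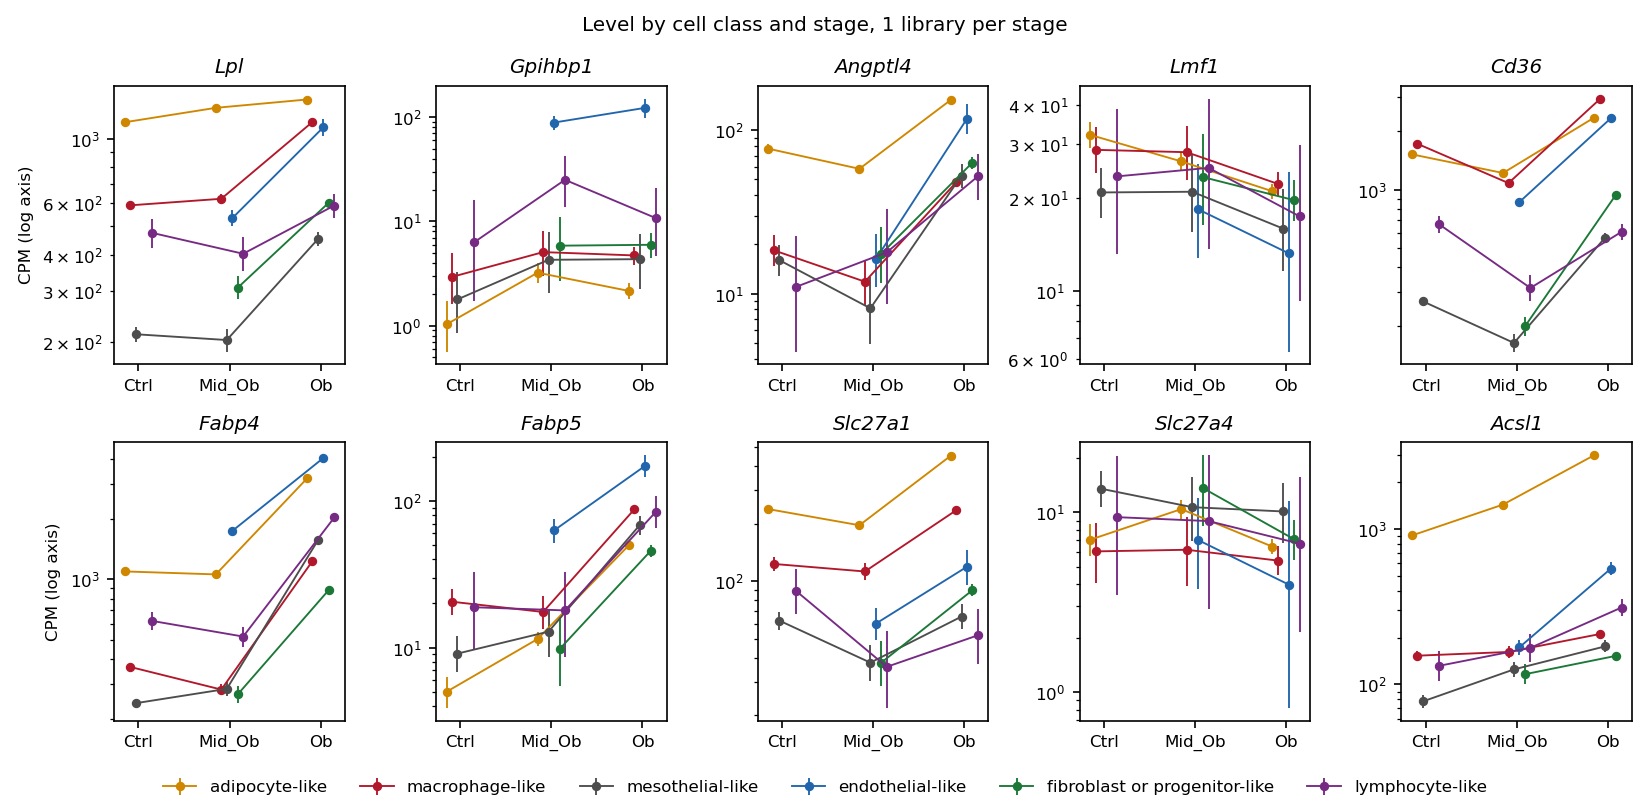
Level of each gene in CPM (log axis) by stage in the 6 named classes of the legend, with points for levels, bars for 95% counting intervals and lines that only join the stages of a class. Lpl is nearly level in adipocyte-like clusters (1139, 1277 and 1364 CPM) and higher in Ob in macrophage-like clusters (1142 CPM), while Fabp4 and Fabp5 are higher in Ob in every class.

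Within adipocyte-like clusters, 3 of the 10 genes (Gpihbp1, Fabp5 and Acsl1) were called higher from Ctrl to Mid_Ob, against 15.3% of all genes, and 0 were called lower, against 20.2%. From Mid_Ob to Ob, 6 were called higher, against 15.3%, and Slc27a4 was called lower, against 19%. From Ctrl to Ob, 7 were called higher, against 18.8%, and Lmf1 was called lower, against 27.6%. The Lmf1 call was narrow. The 6 genes higher in Ob than in Mid_Ob were Angptl4, Cd36, Fabp4, Fabp5, Slc27a1 and Acsl1. From Ctrl to Ob, Gpihbp1 was called as well, with 14 counts in Ctrl. In the same clusters the adipokine gene Adipoq was at 92.5, 78.0 and 150.3 CPM, 1.93-fold higher in Ob than in Mid_Ob. The lipid droplet genes Plin1 and Cidec and the receptor gene Adrb3 stood at 1.17-fold, 1.24-fold and 1.03-fold. Hence not every adipocyte gene moved with the 6. Adipocyte-like cluster 5 of Ob also carried a summed macrophage marker level of 3343 CPM, against 605 and 592 in clusters 4 and 7. It held 32.6% of the UMIs of Ob, out of 55.4% for all adipocyte-like clusters, so it weighs most in the summed values. Ratios without cluster 5 are not given here, and the part of its macrophage transcripts in the ratios was not tested.

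Within macrophage-like clusters, 9 genes reached 50 counts from Ctrl to Mid_Ob. Of these, 0 were called higher, against 8.71% of all genes, and Angptl4 and Cd36 were called lower, against 14.8%. They stood at 0.642-fold and 0.628-fold, beside 0.534-fold for Adrb3, 0.679-fold for Plin1, 0.688-fold for Cidec and 1.02-fold for Adipoq. Without cluster 9 of Ctrl, Angptl4 was not called and Acsl1 was called higher (log2 ratios -0.20 and 1.16). Without cluster 11 of Ctrl, Cd36 was not called (log2 -0.35). From Mid_Ob to Ob, 6 of the 10 genes were called higher, against 13.1%, and 0 lower, against 18.4%. From Ctrl to Ob, 7 were called higher, against 13.7%, and 0 lower, against 24.1%. The 6 genes were Lpl, Angptl4, Cd36, Fabp4, Fabp5 and Slc27a1. From Ctrl to Ob, Gpihbp1 was called as well, with 14 counts in Ctrl. Without cluster 11 of Ctrl its log2 ratio was -0.0250. Adipoq was 2.06-fold (1.62 to 2.65) higher in macrophage-like clusters from Mid_Ob to Ob, at 20.6 and 42.3 CPM, and its part in the ratios of the members was not tested.

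In mesothelial-like clusters, with 9 genes counted from Ctrl to Mid_Ob, Acsl1 was called higher, against 8.06% of all genes, and Angptl4, Cd36 and Slc27a1 were called lower, against 12.3%. From Mid_Ob to Ob, 6 genes were called higher, against 13.3%, and 0 lower, against 9.58%. From Ctrl to Ob, 6 were called higher, against 15.3%, and 0 lower, against 18.1%. Cd36 was at 268, 163 and 569 CPM in these lining cells of the peritoneum. Adipoq was 4.16-fold higher there from Mid_Ob to Ob, beside 2.22-fold for Lpl and 3.48-fold for Cd36, and its part in these ratios was not tested. In fibroblast or progenitor-like clusters 6 genes were called higher in Ob than in Mid_Ob, against 18.6%, and Slc27a4 was called lower, against 13.4%. Cd36 was 4.76-fold and Lpl 1.96-fold higher there, with both clusters of Ob summed. Cluster 19 of Ob carried a summed macrophage marker level of 5247 CPM and 659 CPM of Gpnmb, where cluster 8 of Ob had 573 and 79.6 and the Mid_Ob cluster had 640.5 and 27.3. Cluster 19 had 1674 CPM of Cd36 and cluster 8 had 306. Without cluster 19 the log2 ratio fell to 0.62 for Cd36 and 0.67 for Lpl, both still called higher, and to 0.20 for Slc27a1, which was no longer called.

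In endothelial-like clusters 8 genes reached 50 counts, of which 7 were called higher in Ob than in Mid_Ob, against 13.3% of all genes, and 0 lower, against 19.8%. Gpihbp1, which had its highest levels in this class, was at 88.8 and 123 CPM and was not called, at 1.38-fold (1.06 to 1.80). Without the mixed cluster 16, the log2 ratio was 0.18 for Lpl, 0.60 for Acsl1 and -0.76 for Slc27a1, so that Slc27a1 changed direction and Lpl was within 1.5-fold. These ratios rest on Prox1-rich cluster 21 alone (545 CPM of Prox1). Cluster 9 of Mid_Ob had 125 CPM of Prox1 and also carried pericyte and smooth muscle markers. A difference of stage and a difference between kinds of endothelial cluster therefore cannot be told apart in them. The log2 ratios of Cd36 and Angptl4 without cluster 16 were 1.22 and 2.39. Fabp4 was at 4047 CPM in the summed endothelial-like clusters of Ob and at 2635 in cluster 21 alone, against 1745 in Mid_Ob. Fabp5 was at 173 CPM in the summed clusters and at 114 in cluster 21 alone, against 62.8 in Mid_Ob. Fabp4 and Fabp5 thus stayed higher in Ob without cluster 16, by a smaller margin. The value of Gpihbp1 was 0.82 without cluster 16 and -0.14 without the Prox1-rich cluster 21.

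**Figure D4:**
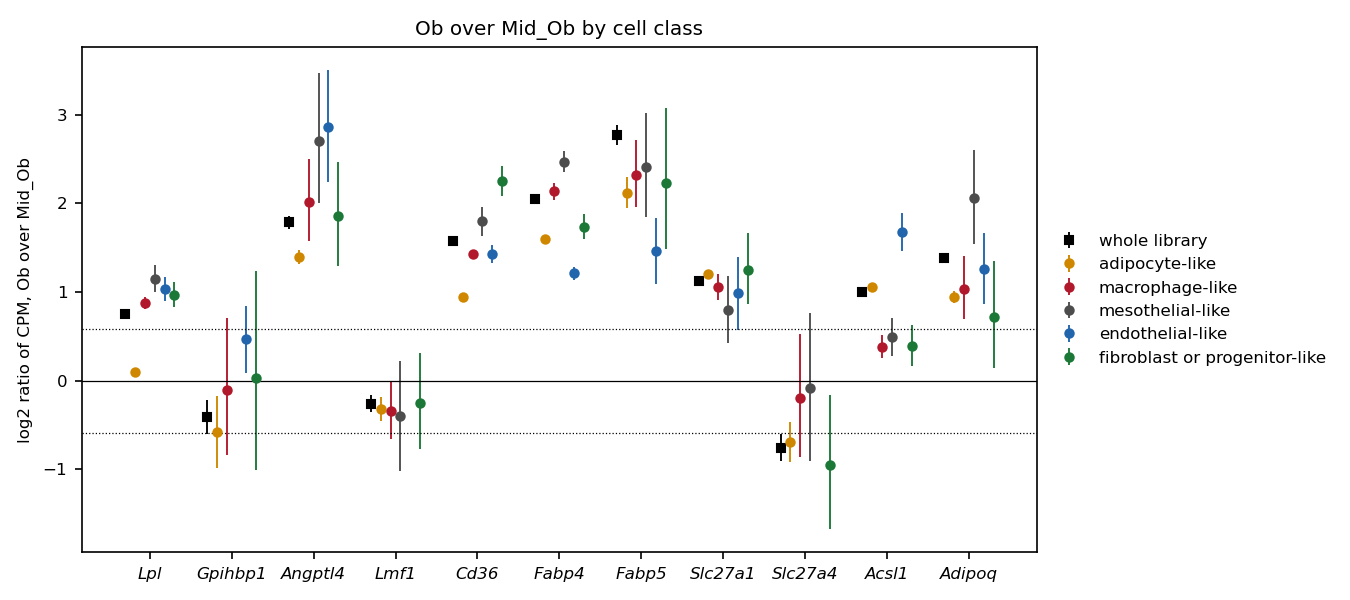
Ratio of Ob over Mid_Ob for each gene and for Adipoq in whole libraries and in 5 cell classes, on a log2 axis with 95% counting intervals as bars and the 1.5-fold limits as dotted lines. Pairs under 50 counts have no point. Fabp4, Fabp5, Angptl4 and Cd36 lie above the upper limit in every class shown, whereas Lpl lies within the limits in adipocyte-like clusters alone (1.07-fold). The endothelial-like points include the mixed cluster 16 of Ob.

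Lpl and Cd36 of macrophage-like clusters were next set against the adipocyte-like clusters of the same library. Adipocyte transcripts were also counted in these clusters, and Adipoq, Plin1, Cidec and Adrb3 served as the comparison. How these transcripts came into macrophage-like clusters was not tested. The summed level of these 4 genes in macrophage-like clusters was 9.55%, 6.27% and 8.28% of that in adipocyte-like clusters in Ctrl, Mid_Ob and Ob. Lpl stood at 51.9%, 48.7% and 83.7%, and Cd36 at 113%, 88.7% and 124%. Adipoq, the highest of the 4 by this measure, stood at 21.7%, 26.4% and 28.1%. Lpl and Cd36 were thus above each of the 4 adipocyte genes at each stage, and Lpl came nearer to the adipocyte level in Ob. Slc27a1 stood at 51.8%, 57.4% and 52.0%, with no such step. Acsl1, at 16.8%, 11.3% and 7.06%, lay above the summed level of the 4 genes in Ctrl and Mid_Ob. In Ob it lay below that sum, though not below Plin1 or Adrb3 alone. Fabp4 (33.3%, 26.5% and 38.6%) and Angptl4 (23.9%, 20.4% and 31.3%) lay nearer to Adipoq.

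The macrophage-like clusters of Ob differed in this measure and in Gpnmb, a marker of lipid-laden macrophages, though Lpl and Gpnmb were not in the same order. Cluster 1 had Lpl at 129% (125 to 132) and Cd36 at 162% of the adipocyte-like level, and cluster 2 had 107% (105 to 109) and 188% (185 to 190). The 4 adipocyte genes stood at 10.6% and 7.19% in these clusters, and Adipoq alone at 45.0% and 22.5%. Gpnmb, a lysosomal membrane glycoprotein of such macrophages, was at 1337 and 3190 CPM there, against 664 in cluster 3 and 57.9 in cluster 20. Lpl stood at 62.0% in cluster 3 and at 62.8% in cluster 14, which had 246 CPM of Gpnmb. Cluster 20, which had 1180 CPM of Cd163, a receptor of resident macrophages, had Lpl at 15.9% and Cd36 at 28.5%, with the 4 genes at 6.03% and Adipoq alone at 19.1%, so that Lpl lay above the 4 genes but below Adipoq there. In cluster 11 of Ob, Lpl (37.5%) also lay below Adipoq (40.8%). The levels of the 4 genes differed between clusters. Cluster 11 of Ctrl, with 1461 CPM of Gpnmb, had Cd36 at 138% (134 to 143) but Lpl at 55.2%, with the 4 genes at 3.07% and Adipoq alone at 16.6%. The macrophage-like clusters with the most Gpnmb were thus 1 and 2 of Ob and 11 of Ctrl. All of them had Cd36 above the adipocyte-like level, and those of Ob alone had Lpl above it.

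**Figure D5:**
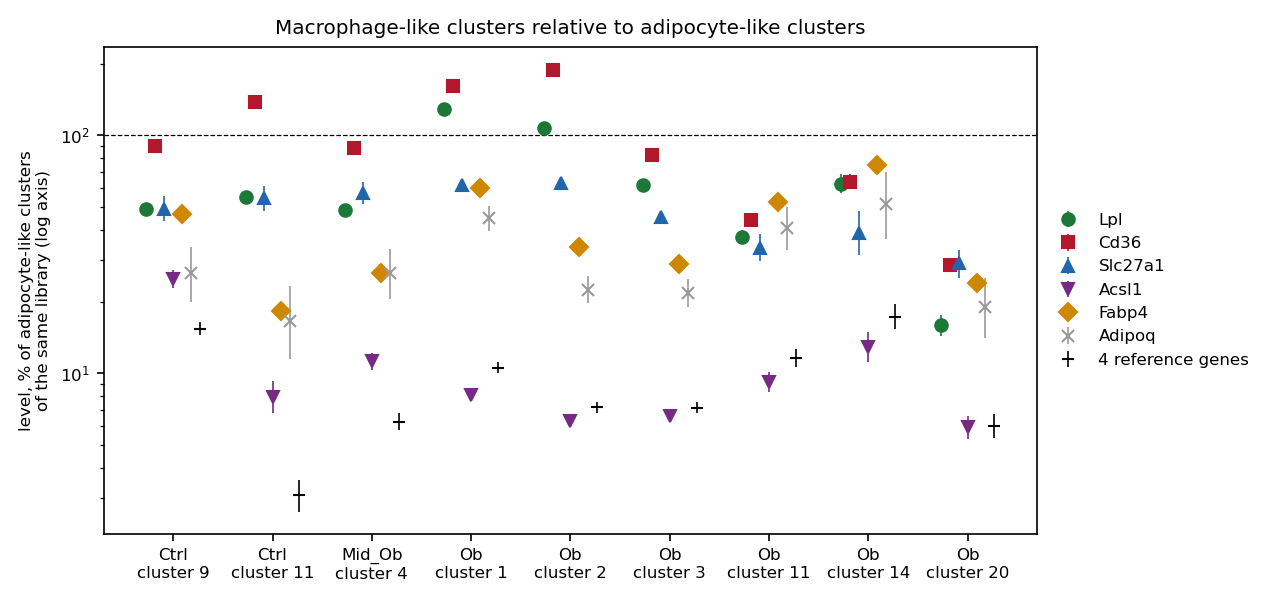
Level of 5 genes in each macrophage-like cluster as a percent (log axis) of the level in the adipocyte-like clusters of the same library, beside Adipoq and the sum of 4 reference genes (Adipoq, Plin1, Cidec and Adrb3), with 95% counting intervals as bars. In clusters 1 and 2 of Ob, Lpl (129% and 107%) and Cd36 (162% and 188%) lie above the dashed line at 100%, while the 4 genes are at 10.6% and 7.19%.

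Over all 46 clusters, the genes with the pattern most like that of each member were named by Pearson's r of log2(CPM + 1), among 11616 genes. Nearest to Lpl were Reep5 (0.90), Cebpa (0.90), a transcription factor of adipocytes and myeloid cells, and Ywhag (0.88). Nearest to Gpihbp1 were Cdh5 (0.87), Flt1 (0.86) and Adgrl4 (0.85), all endothelial genes. Fabp4 was nearest to Hp (0.97), Dbi (0.95) and Adipoq (0.94), and Fabp5 to Ifi27l2a (0.97), Cstb (0.96) and Fth1 (0.96). Between members, r was 0.88 for Lpl and Cd36, 0.90 for Fabp4 and Fabp5, 0.68 for Slc27a1 and Acsl1, and 0.39 for Lpl and Gpihbp1. Clusters of 1 library share its depth and mice, so these values only describe likeness.

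A wider list held 40 other genes of lipase control, lipoprotein receptors, fatty acid transport, binding and activation. In whole libraries, 17 of 34 measured genes were called higher and 7 lower from Ctrl to Mid_Ob, against 17.3% and 35.5% of all genes. From Mid_Ob to Ob 6 of 37 were called higher and 14 lower, against 17.5% and 27.3%, so that the share called higher was near that of all genes. The median log2 ratio of the wider list was 0.55 and then -0.39. Within adipocyte-like clusters 10 of 34 were called higher and 6 lower from Ctrl to Mid_Ob (all genes 15.3% and 20.2%), and 4 of 34 higher and 13 lower from Mid_Ob to Ob (15.3% and 19%). Within macrophage-like clusters 8 of 29 were called higher and 7 lower from Mid_Ob to Ob (13.1% and 18.4%).

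Angptl8, a feeding-induced protein that takes part in the inhibition of the lipase, was at 3.08, 19.8 and 2.33 CPM in adipocyte-like clusters. It was 6.42-fold (4.69 to 9.01) higher in Mid_Ob than in Ctrl and 8.5-fold (7.06 to 10.3) lower in Ob than in Mid_Ob, the reverse of Angptl4. Lipa, the lysosomal acid lipase, was at 42.6, 27.7 and 106 CPM in adipocyte-like and at 221, 186 and 447 CPM in macrophage-like clusters, lowest in Mid_Ob in both. Dbi, the acyl-CoA-binding protein, was 2.03-fold higher in Ob than in Mid_Ob in adipocyte-like clusters and 4.13-fold (3.62 to 4.74) higher in macrophage-like clusters. Lipc, the hepatic lipase gene, was at 1.25, 285 and 1.65 CPM in adipocyte-like clusters and at 3.02, 1012 and 2.73 in the libraries. The summed markers of epididymal epithelium were at 276, 7442 and 92.2 CPM in the libraries, and their part in the Lipc level was not tested.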

How the data were processed

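Nuclei from pooled epididymal fat were sequenced on the 10x Genomics platform, with 1 library per stage. The authors ran Cell Ranger on the reads. The version, the genome build and the gene models were not given in the sources used here. They deposited 1 table per library. Its signal column is the deposited mean count of a gene in a cluster, which is the gene's UMIs over the summed size factor of the nuclei. The deposited log2 and p-value columns hold the authors' contrasts of a cluster with the other nuclei of its library, and were not used. Whole counts were recovered by taking the smallest nonzero value of a cluster as 1 count, and 100% of values came out whole within 0.001 counts.

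Clusters were named from marker genes with at least 10 counts and a level over 2-fold their median level in the other clusters of the library. Counts were summed over clusters of a class and divided by the summed UMIs. Levels have exact Poisson intervals, ratios conditional binomial intervals and shares exact binomial (Clopper-Pearson) intervals, all at 95%. Of 29625 identifiers, 29565 matched GENCODE M21 (GRCm38), used for names and positions alone. The members, markers and lists were chosen with earlier results of these data known. Genes named beside the 10 members are the 3 with the most similar pattern and examples among the 8 with the largest changes in the wider list, while Adipoq, Plin1, Cidec and Adrb3 were the fixed comparison. Prox1, Gpnmb and Cd163 describe clusters. The alternatives tried were median scaling, equal cluster weights, a 2-fold limit, other count minimums, and leaving out clusters. Python 3.11.15 was used with pandas 2.3.3, scipy 1.17.1, numpy 2.4.6 and matplotlib 3.10.9, and the scripts were tested on simulated data. Reads and single nuclei were not analysed here.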

Additional observations from a re-analysis of the deposited data

How the results depend on the processing

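No paired analysis was possible because each stage has 1 library and no replicate. Counts of called members stayed within 1.5 times of the value in the report for 142 alternatives and did not for 28, and the cause was not tested. At a 2-fold limit, whole libraries had 2 members higher and 0 lower from Ctrl to Mid_Ob and 0 lower in the other 2 comparisons. At 2-fold, adipocyte-like clusters had 4 higher from Ctrl to Ob, and 0 lower in both Ob comparisons, macrophage-like clusters had 3 higher from Ctrl to Ob and 0 lower from Ctrl to Mid_Ob, mesothelial-like clusters had 0 in either direction from Ctrl to Mid_Ob, and fibroblast or progenitor-like clusters had 0 lower. Without testis and epididymis clusters, whole libraries had 2 higher and 0 lower from Ctrl to Mid_Ob, 2 lower from Mid_Ob to Ob and 0 lower from Ctrl to Ob. Without unnamed clusters 2 (Gpihbp1 and Slc27a4) were lower from Mid_Ob to Ob. With the median of all ratios as the scale, 0 were lower in whole libraries from Ctrl to either stage and 0 in adipocyte-like clusters from Ctrl to Ob. Leaving out a cluster moved adipocyte-like counts to 2 lower from Mid_Ob to Ob (without cluster 7 of Ob) and 0 lower from Ctrl to Ob (without cluster 4). Without cluster 9 of Ctrl, macrophage-like clusters had 1 higher (Acsl1) and 1 lower (Cd36) from Ctrl to Mid_Ob. Mesothelial-like clusters had 0 higher from Ctrl to Mid_Ob without cluster 3 of Ctrl or with equal cluster weights, and 3 without cluster 5. Endothelial-like clusters had 1 lower (Slc27a1) without cluster 16 of Ob.

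For single genes, 384 values stayed near the main value, 270 moved and 5 changed direction. The last were Gpihbp1 in macrophage-like clusters from Ctrl to Ob without cluster 11 of Ctrl (log2 -0.0250), Slc27a1 in endothelial-like clusters without cluster 16 of Ob (log2 -0.76), and 3 levels of macrophage-like over adipocyte-like clusters set against Adipoq alone instead of 4 genes, which were 0.775 for Acsl1 in Ctrl, 0.427 for Acsl1 in Mid_Ob and 0.772 for Angptl4 in Mid_Ob. Counts under 100, as for Gpihbp1 in many clusters, the endothelial-like clusters of Ob among them, and for Slc27a4 in small classes, leave wide intervals.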

Other observations

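Dividing cell-like cluster 10 of Ob had 1097 CPM of Lpl, 2627 of Cd36 and 73.4 of Fabp5. Its Cd36 lay above that of the 3 adipocyte-like clusters of the library. This cluster also carried a summed macrophage marker level of 6930 CPM and 1017 CPM of Gpnmb. Lymphocyte-like clusters had 475, 403 and 589.9 CPM of Lpl in Ctrl, Mid_Ob and Ob, and 619.6, 517 and 2039 CPM of Fabp4. Adipoq was at 37.6, 32.2 and 93.9 CPM in the same clusters, and the part of adipocyte transcripts in these levels was not tested. Germ cell-like clusters of Ctrl had 38.0 CPM of Lmf1, with 54.7 CPM in cluster 13. The mitochondria-rich unnamed clusters 1 of Ctrl and 5 of Mid_Ob, at 1.85% and 2.98% mitochondrial UMIs, had 1319 CPM (1254 to 1387) and 1364 CPM (1260.2 to 1474) of Lpl. The first lay above the adipocyte-like cluster of its library, while the interval of the second overlapped that of the adipocyte-like cluster.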
